A study of Mus musculus with 2 samples.

Results

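The hepatic arm of insulin and glucagon signalling was followed here through 10 genes, chosen by name: Insr, Irs1, Irs2, Akt1, Akt2, Foxo1, Foxo3, Gcgr, Creb3l3 and Trib3. Each was found by stable identifier in the deposited gene and transcript tables, which made 10 of 43346 annotated genes. The data are poly-A RNA-seq of liver from adult C57BL/6J mice, a common inbred laboratory strain, 8 weeks old, labelled as tissue pooled from male and female littermates. There are 2 libraries, biological replicates 1 and 2 of 1 group, and no treatment, genotype or feeding state is contrasted, so the text gives levels and the spread between libraries. The libraries carry 1 shared donor identifier and separate biosample identifiers, and their health state is labelled unknown. The labels do not say whether the replicates came from separate animals, so the p-values below speak of these 2 libraries only and their spread may be technical.

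In hepatocytes, insulin binds the receptor tyrosine kinase encoded by Insr, which phosphorylates the docking proteins IRS1 and IRS2. These recruit phosphoinositide 3-kinase, whose lipid product activates the kinases AKT1 and AKT2. AKT phosphorylates FOXO1 and FOXO3 and keeps these transcription factors out of the nucleus, which lowers transcription of gluconeogenic genes. Glucagon works through the G protein-coupled receptor encoded by Gcgr, which raises cyclic AMP. Creb3l3 encodes CREB3L3 (CREBH), a transcription factor held in the endoplasmic reticulum membrane and released by cleavage. Trib3 encodes a pseudokinase reported to bind AKT.

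Depth was 60770411 estimated reads for replicate 1 and 61688916 for replicate 2, counting the spike-ins. Of the 7 hepatocyte markers fixed for the label check, all 7 were detected, and under TMM scaling 6 passed the exact binomial test between libraries as higher in replicate 1 and 1 as higher in replicate 2. The direction turned with the scaling, to 2 and 4 by total reads and 2 and 5 by spike-ins. Over all genes tested, 29% passed as higher in replicate 1 and 28.6% as higher in replicate 2 under TMM, 18% and 40.7% by total reads, and 15.8% and 44.1% by spike-ins. Over the 1569 genes listed on chromosome Y there were 0 and 1 reads, against the label of pooled sexes. The sex-linked gene Xist was at 23.38 and 35.87 TPM in replicates 1 and 2. The cause of the missing chromosome Y reads was not tested. Markers of other cells moved between the libraries: all 8 Kupffer cell markers passed the test under TMM as higher in replicate 2, beside the 28.6% of all genes, with summed TPM (a level scaled by length and by library total) of 210.04 and 348.25 in replicates 1 and 2. So did 5 of 7 endothelial markers (89.68 and 118.84 TPM) and 4 of 6 lymphocyte markers (5.20 and 13.13 TPM). For stellate cells 4 of 8 markers were higher in replicate 2 and 2 in replicate 1 (105.47 and 119.45 TPM). Summed levels were 21.21 and 18.72 TPM for bile duct markers, 3.0 and 2.42 TPM for fat, 9.34 and 6.40 TPM for pancreas and 0.55 and 0.74 TPM for muscle, with Ins1, Ins2, Retn and Myh4 listed at 0 in both. Their part in the differences between libraries given below was not tested. In bulk tissue, fewer cells of a type and less RNA per cell cannot be told apart.

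All 10 genes were detected at 1 TPM or more in both libraries. Their levels spanned the range from Trib3, at 4.05 and 4.62 TPM in replicates 1 and 2, to Gcgr, at 454.13 and 482.68 TPM. Summed TPM of the 10 genes was 866.15 and 923.73, and Gcgr and Creb3l3 together held 80.4% and 81.0% of it. The glucagon receptor mRNA was at 24.1 times the TPM of the insulin receptor mRNA in replicate 1 and 27.7 times in replicate 2, or 36.3 and 38.0 times when only protein-coding models were counted. By mean TPM the order was Gcgr, Creb3l3, Akt2, Akt1, Insr, Foxo3, Irs1, Irs2, Foxo1 and Trib3. Every neighbouring pair in this order was separated, with both libraries of the upper gene above both of the lower, except Irs2 and Foxo1, which overlapped.

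**Figure D1:**
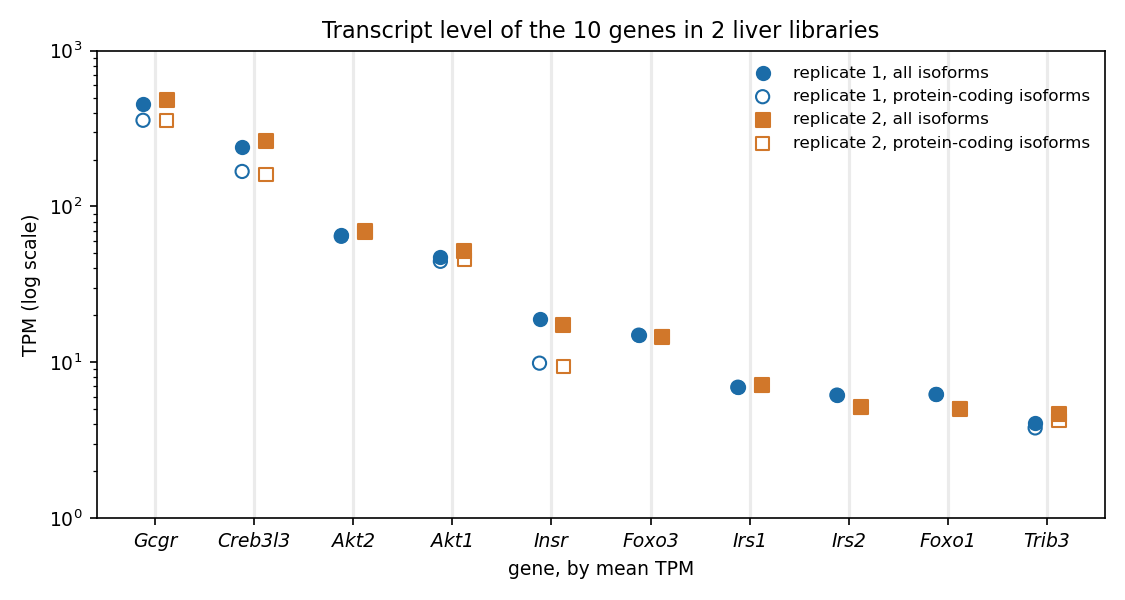
TPM of each gene on a log axis, with circles for replicate 1 and squares for replicate 2. Filled symbols count all isoforms of a gene and open symbols only those with a protein-coding model; Gcgr and Creb3l3 stand above all others, and the open symbols of Insr, at 9.85 and 9.36 TPM, fall below Foxo3.

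Insr (ENSMUSG00000005534, chr8:3122061-3279617, minus strand, GRCm38) was at 18.82 TPM in replicate 1 and 17.43 in replicate 2, from 5054 and 4814 estimated reads. Counting error alone gives 95% intervals of 18.3 to 19.3 and 16.9 to 17.9 TPM (exact Poisson), which do not overlap. The receptor ranked 3623 and 3981 among 21474 protein-coding genes. Only 2 Insr models are listed. Insr-201, the full-length coding model of 9355 bases, held 52.35% and 53.74% of the gene's TPM, and the retained-intron model Insr-202, of 1675 bases, held 47.65% and 46.26%. By reads the picture differs, since Insr-202 is short: it took 12.9% and 12.3% of the gene's reads. On coding models alone, Insr was at 9.85 and 9.36 TPM, and its place in the order moved from the fifth to below Foxo3.

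The insulin receptor is known to exist in isoforms A and B, which differ by an exon of 36 bases. The listed Insr-201 lacks this exon. A later GENCODE release places it in the partial model Insr-203, between exons 10 and 11 of Insr-201, at chr8:3181702-3181737 on the minus strand. It is shown because the deposited tables have no row that could separate isoform A from isoform B:
Insr 36-base exon: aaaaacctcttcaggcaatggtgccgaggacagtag
The share of receptor transcripts with this exon was not analysed here.

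Insr-202 covers most of exon 1 and the whole of exons 2 and 3 of Insr-201 and then runs 278 bases into intron 3, which is 6600 bases long (chr8:3204779-3211378). By the models, that stretch is what Insr-202 has and Insr-201 lacks. The positions of the reads given to Insr-202 were not examined. The border is printed with the last 15 exon bases and the first 15 intron bases, the donor dinucleotide in capitals:
Insr exon 3 to intron 3, chr8:3211364-3211393, minus strand: catgaattccagcaaGTaagtcctggatga

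The docking proteins were at lower mRNA levels than the receptor gene as a whole. Irs1 (ENSMUSG00000055980, chr1:82233101-82291416, minus strand) was at 6.90 TPM in replicate 1 and 7.09 in replicate 2, and Irs2 (ENSMUSG00000038894, chr8:10984681-11008458, minus strand) at 6.14 and 5.12 TPM. Irs1 was thus the higher of the pair in both libraries. The ratio of Irs1 to Irs2 TPM was 1.12 (95% interval from counting error 1.05 to 1.20) in replicate 1 and 1.38 (1.29 to 1.49) in replicate 2. This ratio needs no scaling between libraries, and it was 1.23 times larger in replicate 2 (1.12 to 1.36). Each gene has 1 listed isoform. The Irs2 model of the tables has 4024 bases and that of the later release 6323, so 2299 bases of the longer model were outside the Irs2 count, whereas the Irs1 model is 9144 bases in both. Counted by reads instead of by length, Irs1 had 2.63 and 3.23 times the reads of Irs2. The longest stretch shared exactly by any Irs1 and Irs2 transcripts was 21 bases, under the read length of 76 bases.

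Akt2 exceeded Akt1 in both libraries. Akt2 (ENSMUSG00000004056, chr7:27591552-27640826, plus strand), the form best known for metabolic insulin action, was at 65.46 TPM in replicate 1 and 70.00 in replicate 2. Akt1 (ENSMUSG00000001729, chr12:112653821-112674884, minus strand) was at 47.52 and 52.05 TPM. The groups of values did not overlap, and the Akt2 to Akt1 ratio was 1.38 (1.33 to 1.42) and 1.34 (1.30 to 1.39). That ratio was 0.976 times as large in replicate 2 as in replicate 1, with an interval of 0.932 to 1.02 that includes no change. No stretch of 76 bases was shared by Akt1 and Akt2 transcripts, the longest being 32 bases.

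Akt1 was carried mostly by 1 model. Akt1-201 held 91.52% of its TPM in replicate 1 and 86.74% in replicate 2, and the other 8 models each held under 10% on average. Akt2 was divided among 3 coding models. Akt2-201 held 47.69% and 44.79%, Akt2-214 28.41% and 35.58%, and Akt2-205 19.03% and 11.55%, with 11 further models under 10%. These 3 models have the same coding sequence of 481 codons. They differ before and after it: Akt2-205 has 413 bases before its start codon and 2688 after the last codon, Akt2-201 has 165 and 1315, and Akt2-214 has 219 and 1203. Akt2-205 had 2645 reads in replicate 1 and 1735 in replicate 2, with posterior standard deviations of the estimate of 115 and 83.1 reads.

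Of the FOXO factors, Foxo3 had the higher level. Foxo3 (ENSMUSG00000048756, chr10:42181841-42276755, minus strand) was at 14.90 TPM in replicate 1 and 14.61 in replicate 2, while Foxo1 (ENSMUSG00000044167, chr3:52268336-52353221, plus strand) was at 6.20 and 5.03 TPM. The ratio of Foxo3 to Foxo1 was 2.40 (2.28 to 2.53) in replicate 1 and 2.90 (2.75 to 3.07) in replicate 2. It was 1.21 times larger in replicate 2 (1.12 to 1.30), with both genes at lower TPM there and Foxo1 by more. By reads unscaled for length the ratio was 1.23 and 1.49. Their transcripts shared at most 38 bases exactly.

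Foxo1 has 1 listed isoform, of 8665 bases. For Foxo3, Foxo3-203 held 48.45% of TPM in replicate 1 and 48.20% in replicate 2, and Foxo3-204 held 43.65% and 44.12%. Both encode the same 672 codons, and they differ mainly after the coding sequence, where Foxo3-203 has 4493 bases and Foxo3-204 has 236. Foxo3-202 held under 10%, and Foxo3-201 and Foxo3-205 were at 0 reads in both libraries. The split between the leading models was nearly the same in both libraries.

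AKT recognises arginine, any residue, arginine, any 2 residues, then serine or threonine. A search of the translated coding sequences found 3 such sites in FOXO1 and 3 in FOXO3, the sites through which insulin is known to act on these factors. The coding bases of each site are shown because they are the link from AKT to FOXO in both paralogues; the codon of the phosphorylated residue is in capitals:
Foxo1 threonine 24, chr3:52268856-52268873, plus strand: cggcagcgctcctgtACC
Foxo3 threonine 32, chr10:42275338-42275355, minus strand: cggccacgctcctgtACG
Foxo1 serine 253, chr3:52345159-52345176, plus strand: cggagaagagctgcgTCC
Foxo3 serine 252, chr10:42197764-42197781, minus strand: cggcggcgtgcggtcTCC
Foxo1 serine 316, chr3:52345348-52345365, plus strand: cgtcctcgaaccagcTCA
Foxo3 serine 314, chr10:42197578-42197595, minus strand: cgctcgcgcaccaatTCC
Residues are counted from 1 at the start of the translated model. The first pair differed at 3 of 18 bases, and each of the other pairs at 7 of 18. RNA-seq gives the level of these transcripts, not the phosphorylation of the sites.

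The glucagon receptor was the most abundant of the 10. Gcgr (ENSMUSG00000025127, chr11:120530699-120538986, plus strand) had 39717 and 42946 reads, at 454.13 TPM in replicate 1 and 482.68 in replicate 2, and ranked 294 and 274 among protein-coding genes. The coding model Gcgr-201 had 357.59 and 355.47 TPM, a mean of 357 ± 1.5 (SD, n = 2). The higher TPM of the gene in replicate 2 therefore lay in the other models. Gcgr-204, a processed transcript without a coding sequence, was at 62.10 and 80.29 TPM (13.67% and 16.64% of the gene), and 2 more such models were each under 10%.

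Gcgr-204 keeps intron 5, of 95 bases (chr11:120536367-120536461), whole. Gcgr-202 keeps that intron and introns 4, 7, 12 and 13. The border of intron 5 is shown because its retention separates Gcgr-204 from Gcgr-201 there, with the donor dinucleotide in capitals:
Gcgr exon 5 to intron 5, chr11:120536352-120536381, plus strand: gagatcgaggtccagGTcagctctggaggg

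Creb3l3 (ENSMUSG00000035041, chr10:81084324-81098874, minus strand) came second, at 242.03 TPM in replicate 1 and 265.10 in replicate 2, ranks 505 and 464. Its coding model Creb3l3-201 was at 167.78 and 159.97 TPM. The gene as a whole was thus higher in replicate 2 by TPM, and its coding model was higher in replicate 1. The coding share was 69.32% and 60.34%. The retained-intron model Creb3l3-203 made up most of the rest, at 61.71 and 86.96 TPM (25.50% and 32.80%). It rested on 1672 and 2417 reads, with posterior standard deviations of 67.2 and 69.7 reads.

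Creb3l3-203 runs 134 bases into intron 6 (632 bases, chr10:81089445-81090076), and Creb3l3-204, a further retained-intron model under 10%, runs 515 bases into intron 5 (954 bases, chr10:81090184-81091137). Both borders are shown, since the intron bases beyond them are what these models add, with the donor dinucleotide in capitals:
Creb3l3 exon 6 to intron 6, chr10:81090062-81090091, minus strand: ggcagcggggacttgGTaggcatccccatg
Creb3l3 exon 5 to intron 5, chr10:81091123-81091152, minus strand: tggccattgacctggGTgagtatgaggcta

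Trib3 (ENSMUSG00000032715, chr2:152337422-152344032, minus strand) was the lowest, at 4.05 TPM in replicate 1 and 4.62 in replicate 2, from 343 and 391 reads. Its 95% counting intervals, 3.63 to 4.50 and 4.17 to 5.10 TPM, overlapped. The coding model Trib3-201 held 93.26% and 91.77%. The posterior mean put Trib3-201 at 84.4% on average.

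Across the 10 genes, the most abundant isoform was the same in both libraries for all 10. Models that code for no protein had reads for 6 genes, and their summed share was higher in replicate 2 for 5 (Akt1, Akt2, Gcgr, Creb3l3 and Trib3) and lower for 1 (Insr). The largest step was that of Creb3l3, from 30.7% to 39.7%, followed by Akt1, from 6.50% to 11.9%, and Gcgr, from 21.3% to 26.4%. A like shift held more widely, with every model not annotated as protein coding counted, a class that can be wider. Among 6036 protein-coding genes with both kinds of model, the median share of that class was 10.5% in replicate 1 and 14.3% in replicate 2. It was higher in replicate 2 for 62.3% of genes. The mean share of Insr lay above 80.9% of those genes and that of Creb3l3 above 72.6%. Shares rest on how the estimate divides reads among overlapping models.

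**Figure D2:**
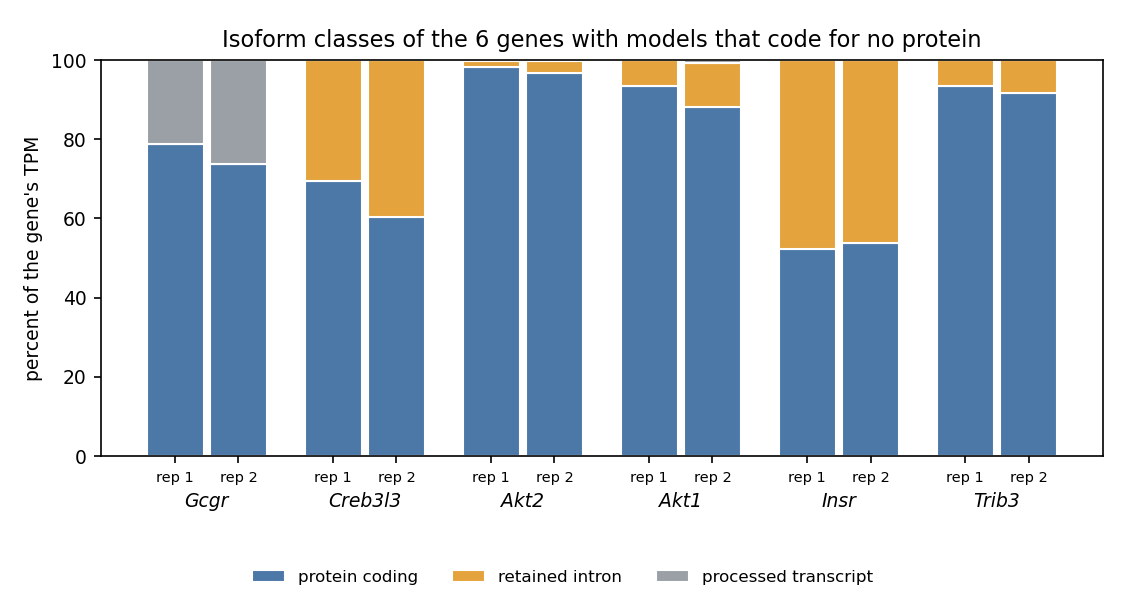
Share of each gene's TPM held by protein-coding, retained-intron and processed-transcript models, stacked to 100% for replicate 1 (left bar) and replicate 2 (right bar). Insr has the largest retained-intron share, at 47.7% and 46.3%, and the coding share of Creb3l3 is 69.3% and 60.3%.

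Between the libraries, 8 of the 10 genes passed edgeR's exact conditional binomial test (TMM scaling, Benjamini-Hochberg adjusted p under 0.05), and all 8 were higher in replicate 1. Over all 14533 genes tested, 57.6% passed, 29% as higher in replicate 1 and 28.6% as higher in replicate 2. This test takes counting error as its only error. With edgeR's exact test at the common dispersion of these libraries, a coefficient of variation of 24.2%, none of the 10 passed, 0 had an unadjusted p under 0.05, and 1.11% of all genes passed. That dispersion was estimated from these same 2 libraries taken as replicates, so the differences tested are part of their own error term. A gene can pass only if it differs far more than genes do in general, and not passing does not show equal levels. The differences were small for most: the median over the 10 genes was -0.12 on the log2 scale of reads (replicate 2 over replicate 1), against 0.0033 over all genes. These medians keep the sign and so do not compare sizes. The median absolute log2 ratio was 0.22 over tested genes at a mean of 1 TPM or more. Of the 10, only Foxo1 and Irs2 exceeded it.

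Under TMM, Foxo1, Irs2 and Insr showed the largest differences of the 10. From 2562 reads in replicate 1 and 2095 in replicate 2, the log2 ratio of Foxo1 was -0.43 (95% interval -0.52 to -0.35, adjusted p = 1.0e-23 by edgeR's exact binomial test), which is 1.35-fold higher in replicate 1. The ratio of Irs2 was -0.39 (-0.52 to -0.27), or 1.31-fold, with 1148 and 967 reads. The ratio of Insr was -0.21 (-0.27 to -0.16), or 1.16-fold. Many genes of these libraries differed as much or more: among genes at a mean of 1 TPM or more, 78.6% had a smaller absolute log2 ratio than Foxo1, 74.8% than Irs2 and 49.1% than Insr.

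Under TMM the other 7 genes differed less, and for 5 of them the direction turned with the scaling. The log2 ratio was -0.16 for Foxo3, -0.12 for Creb3l3, -0.11 for Akt2, -0.09 for Irs1 and -0.03 for Gcgr, all past the threshold, while Akt1 (-0.06, adjusted p = 0.060) and Trib3 (0.04, adjusted p = 0.76) were not. TMM counts replicate 2 as 1.11 times as deep, against 1.02 by total reads and 0.995 by spike-ins. Scaled by total reads, the median of all genes shifted to 0.13, and by spike-ins to 0.15. Under total reads 5 of the 10 passed, 3 higher in replicate 1 and 2 in replicate 2, beside 58.7% of all genes (18% and 40.7%). Under spike-ins 6 passed, 3 in each direction, beside 59.9% (15.8% and 44.1%). With DESeq2 size factors 9 passed, all higher in replicate 1, beside 57.6% of all genes (29.3% higher in replicate 1 and 28.4% in replicate 2).

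Among the signalling genes followed here, Insr, Irs2 and Foxo1 alone passed in the same direction under all 4 scalings. For Insr this was marginal, with an adjusted p of 0.0496 by edgeR's exact binomial test under spike-ins. How large a share of all genes tested did so under all 4 scalings was not computed. Insr, Irs2 and Foxo1 are thus not shown to stand out from other genes in this respect. Gcgr, Creb3l3, Akt2, Akt1 and Irs1 turned from higher in replicate 1 to higher in replicate 2 under total reads and spike-ins. TPM likewise has Gcgr, Creb3l3, Akt2, Akt1, Irs1 and Trib3 higher in replicate 2.

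**Figure D3:**
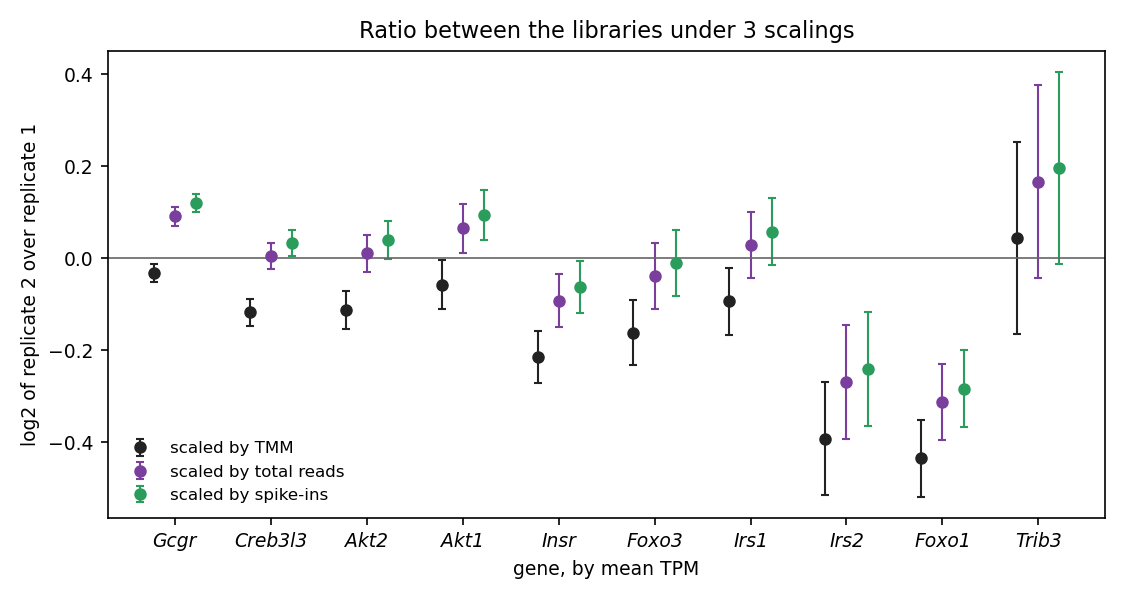
Log2 ratio of reads, replicate 2 over replicate 1, for each gene under scaling by TMM, total reads and spike-ins, with 95% intervals from counting error. Under all 3, Insr, Irs2 and Foxo1 stay below 0 with their intervals, while Gcgr, Akt1 and Creb3l3 cross from below 0 under TMM to above it under spike-ins.

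The most abundant partners of the receptor were at higher TPM than Insr itself. Of 14 genes around the insulin receptor, 10 were detected in both libraries, and 3 of 12 tested were higher in replicate 1 and 3 in replicate 2 under TMM. By total reads these counts were 1 and 6, and by spike-ins 1 and 7. Over all genes tested, these directions took 29% and 28.6% under TMM, 18% and 40.7% by total reads, and 15.8% and 44.1% by spike-ins. The leading ones were Ceacam1, which takes part in insulin clearance, at 63.32 and 68.23 TPM, the adaptor Shc1 at 48.58 and 48.96 TPM, and the adaptor Sh2b1 at 23.38 and 28.41 TPM. Sh2b2 showed the largest difference, from 2.58 to 4.99 TPM (log2 ratio 0.82, adjusted p = 3.8e-17, edgeR). Insrr and Irs4 were below 0.1 TPM in both libraries. The IGF1 receptor gene Igf1r, named after its values were seen, was at 0.25 and 0.27 TPM, far below Insr.

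Of the 24 genes of the phosphoinositide 3-kinase, AKT and mTOR core, 22 were detected, and 5 of 23 tested were higher in each replicate under TMM. Eif4ebp1, a translation repressor downstream of mTOR, was at 61.19 and 81.88 TPM, the kinase gene Gsk3a at 57.67 and 62.00 TPM, and the regulatory subunit gene Pik3r2 at 31.73 and 46.06 TPM. Rictor, the mTORC2 subunit needed for full AKT activation, differed most among those at 1 TPM or more, at 1.62 and 2.49 TPM (log2 ratio 0.49). Foxo6 was below 0.1 TPM in both. By total reads 2 were higher in replicate 1 and 11 in replicate 2, and by spike-ins 2 and 15. The shares of all genes were 29% and 28.6% under TMM, 18% and 40.7% by total reads, and 15.8% and 44.1% by spike-ins.

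Among 14 brakes on insulin signalling, 12 were detected. Under TMM 3 were higher in replicate 1 and 5 in replicate 2, and 2 and 6 both by total reads and by spike-ins. All genes stood at 29% and 28.6% under TMM, 18% and 40.7% by total reads, and 15.8% and 44.1% by spike-ins. The lipid phosphatase gene Inppl1 was at 17.64 and 21.40 TPM, Trib1, a relative of Trib3, at 16.84 and 17.19 TPM, and the phosphatase subunit gene Ppp2ca at 17.79 and 15.04 TPM. Among called genes at a mean of 1 TPM or more, Socs3, a cytokine-induced inhibitor, had the largest difference, at 3.39 and 6.47 TPM (log2 ratio 0.64, adjusted p = 8.0e-12, edgeR).

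Downstream of Gcgr, 33 of 42 listed genes were detected, and most of the list acts in cyclic AMP signalling. Gnas, which encodes the stimulatory G protein alpha subunit, was at 346.69 TPM in replicate 1 and 360.05 in replicate 2, of the same order as Gcgr itself. The next were Gna11, which encodes an alpha subunit of another G protein class, at 53.84 and 53.02 TPM, and Prkar1a, a regulatory subunit of protein kinase A, at 42.84 and 51.51 TPM. Of 39 tested, 11 were higher in replicate 1 and 11 in replicate 2 under TMM, with a median log2 ratio of 0.03. By total reads these counts were 9 and 19 (median 0.15), and by spike-ins 7 and 19 (0.18). Of all genes, 29% and 28.6% passed in these directions under TMM, 18% and 40.7% by total reads, and 15.8% and 44.1% by spike-ins. Among called genes at a mean of 1 TPM or more, Crtc3, a CREB coactivator, differed most, at 7.22 and 10.93 TPM (0.85). Adcy8, Adcy10 and Prkar2b were below 0.1 TPM in both.

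Gcgr was far above its relatives. Of 8 other receptors of the glucagon and secretin family, only Vipr1, a receptor for vasoactive intestinal peptide, was detected at 1 TPM or more, at 14.13 and 14.35 TPM, and Adcyap1r1 was at 0.63 and 0.68 TPM. Ghrhr, Glp1r, Sctr, Vipr2, Glp2r and Gipr were below 0.1 TPM in both libraries. Glp1r had 0 and 2 reads, and Gipr had 0 in each, which allows up to 0.0384 and 0.0378 TPM (the TPM of 3 reads, for counting error only). None of the hormones themselves was detected: Ins1, Ins2, Iapp and Sst had 0 reads in both libraries, Gcg had 1 and 0, and Ppy 0 and 1. For Ins1 and Ins2 a count of 0 allows up to 0.0743 and 0.238 TPM in replicate 1.

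Genes that FOXO factors and cyclic AMP are known to switch on were, where they passed, higher in replicate 1. Of 14 listed, 13 were detected and 11 passed as higher in replicate 1, with 0 higher in replicate 2, beside 29% and 28.6% of all genes tested. The list and this direction overlap with what was already known of these libraries and are not independent evidence. The gluconeogenic enzyme gene Pck1 was at 491.10 TPM in replicate 1 and 206.83 in replicate 2, the tyrosine aminotransferase gene Tat at 1183.06 and 746.79 TPM, and the transcription factor gene Klf15 at 206.48 and 123.47 TPM. Igfbp1, a classical insulin-repressed gene, was at 42.63 and 14.75 TPM (log2 ratio -1.65, adjusted p = 1.7e-237, edgeR's exact binomial test). The median log2 ratio was -0.47, and 10 of the 14 kept call and direction under TMM, total reads and spike-ins. By total reads and by spike-ins alike, 10 passed as higher in replicate 1 and 0 in replicate 2. All genes stood at 18% and 40.7% by total reads, and 15.8% and 44.1% by spike-ins. The share of all genes that kept call and direction under all of these scalings was not computed. At the common dispersion none passed after adjustment, and Igfbp1, Pck1 and Pdk4 had an unadjusted p under 0.05. Irs2, itself a known FOXO target but not on this list, was also higher in replicate 1, as given above. The part of FOXO factors in these differences was not tested.

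Genes induced by insulin and its effector SREBP-1c differed mostly the other way. All 11 were detected, 7 were higher in replicate 2 and 3 in replicate 1, with a median log2 ratio of 0.33, in libraries where 28.6% and 29% of all genes passed in these directions. The desaturase gene Scd1 was at 1146.01 and 1905.47 TPM, the fatty acid synthase gene Fasn at 513.21 and 762.58 TPM, and Srebf1 at 400.19 and 499.28 TPM. The largest ratio was that of Pnpla3, from 1.49 to 3.76 TPM (log2 ratio 1.20, adjusted p = 1.8e-39, edgeR). Of the 3 higher in replicate 1, Insig1, named after its values were seen, was at 424.33 and 388.25 TPM (-0.26), and Srebf1 had a log2 ratio of -0.08 by reads under TMM that turned to 0.04 under total reads. At the common dispersion 0 of the 11 passed, and Pnpla3 alone had an unadjusted p under 0.05. No label gives the feeding state of the mice.

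**Figure D4:**
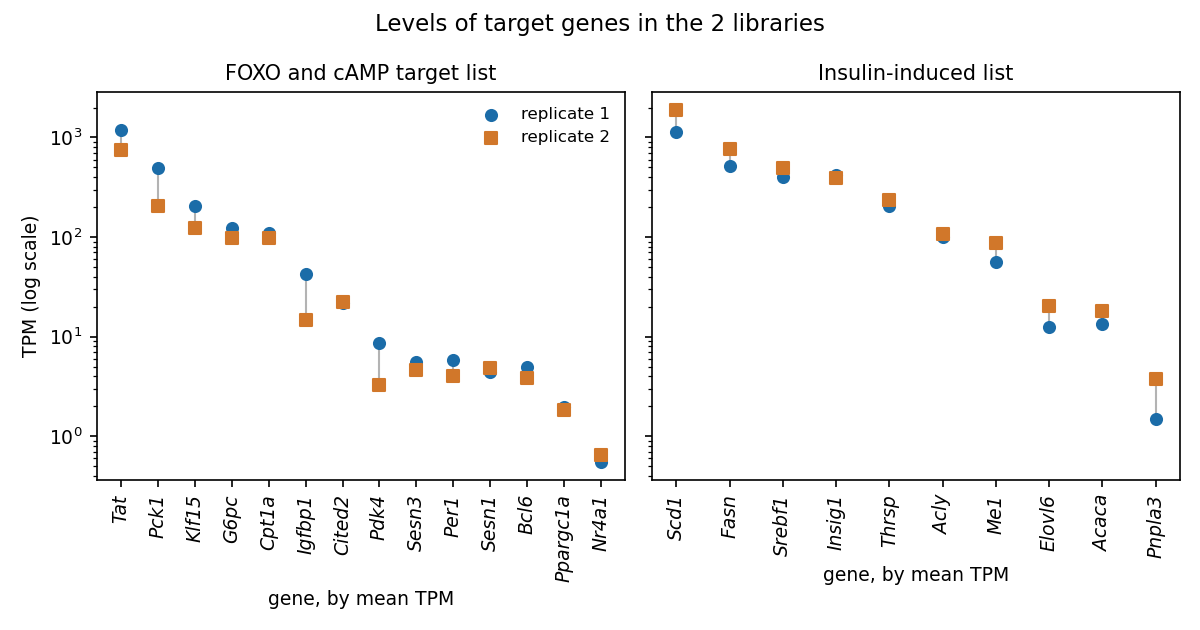
TPM on a log axis of the FOXO and cyclic AMP target list (left) and 10 genes of the insulin-induced list (right), with circles for replicate 1 and squares for replicate 2 joined by a line. Pck1, Igfbp1 and Pdk4 show the widest gaps on the left, with replicate 1 higher, and Pnpla3 on the right, with replicate 2 higher.

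Targets reported for CREB3L3 were mixed. Of 10, 9 were detected, 6 were higher in replicate 1 and 2 in replicate 2 under TMM, against 5 and 3 by total reads and 5 and 4 by spike-ins. Hamp, which encodes hepcidin and whose reads may be divided with the near copy Hamp2, was at 4495.19 and 6786.27 TPM. The apolipoprotein gene Apoa5 was at 1465.13 and 1586.71 TPM and Apoc2 at 569.58 and 303.98 TPM. Lpl, the lipoprotein lipase gene, had the largest ratio, at 2.97 and 9.30 TPM (log2 ratio 1.47, adjusted p = 7.8e-64, edgeR). The machinery around CREB3L3 in the endoplasmic reticulum was present: 9 of 11 genes were detected, led by the chaperone gene Hspa5 at 1236.58 and 1156.66 TPM and the stress factor gene Xbp1 at 122.84 and 207.25 TPM (0.60), then Scap at 54.27 and 57.50 TPM. Of the 10 of these tested, 3 were higher in replicate 1 and 2 in replicate 2 under TMM, and 1 and 8 under total reads and under spike-ins. Beside both lists, all genes stood at 29% and 28.6% under TMM, 18% and 40.7% by total reads, and 15.8% and 44.1% by spike-ins.

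Trib3 is a known target of the stress factor ATF4. Of 13 genes of that axis 10 were detected, 3 were higher in replicate 1 and 7 in replicate 2, beside 29% and 28.6% of all genes, with a median log2 ratio of 0.23. Atf5 was at 455.31 and 359.84 TPM, Atf4 at 71.56 and 107.75 TPM, and Ppp1r15a at 9.04 and 12.84 TPM. Vldlr had the largest ratio, at 7.70 TPM in replicate 1 and 3.33 in replicate 2 (log2 ratio -1.40, adjusted p = 3.0e-65, edgeR). Trib3 did not pass under any of the 4 scalings, with log2 ratios from 0.04 to 0.20.

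**Figure D5:**
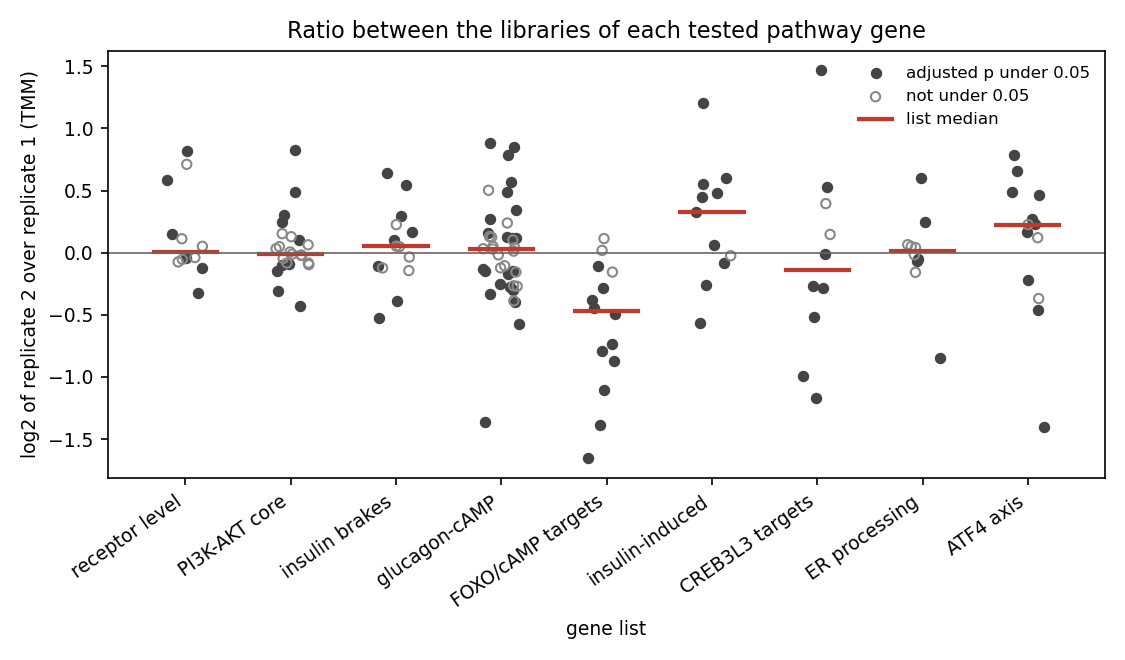
Log2 ratio of reads (replicate 2 over replicate 1, TMM) of each tested gene in the 9 pathway lists with more than 2 tested genes; filled points passed an adjusted p of 0.05, open points did not, and red bars are list medians. The FOXO and cyclic AMP targets have a median of -0.47 and the insulin-induced genes 0.33, while the other medians lie between -0.14 and 0.23.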

How the data were processed

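Poly-A RNA of adult mouse liver was sequenced as stranded pairs of 76 nucleotides from RNA above 200 nucleotides with spike-ins, per the labels' protocols. Per the file headers and notes, the build is mm10 and the annotation GENCODE M4, while the authors' aligner and quantification tool are not named in what was used here. The deposited expected counts are estimated read pairs that need not be whole, and the deposited TPM values divide them by effective length and scale them to a fixed sum over all entries. The deposited percent is an isoform's share of its gene's TPM, and the deposited posterior standard deviation, a score of the authors, measures uncertainty of read assignment (0 reads for the genes studied except Akt2, at 3.01 and 1.42 reads). The deposited lengths and effective lengths are other values used as given. Junction and contig files on mm9 were not used.

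Names, coordinates and models were taken from GENCODE M21 (GRCm38, identical in assembly to mm10), for 42462 of 43346 genes, and printed sequences from its transcripts. Expected counts were rounded and genes with 20 reads or more over both libraries were compared by edgeR 4.0.16 (R 4.3.3) with binomTest, two-sided, which uses a chi-square approximation above 10000 reads. Scaling was by TMM and ratios used a prior count of 0.5. Detection was 1 TPM and absence below 0.1 TPM in both libraries. Alternatives were total reads, spike-ins, DESeq2 1.42.0 size factors, no filter, posterior means, a prior count of 5 and edgeR's exact test at the common dispersion. Pathway genes were named in the text mainly by rule. These were the 3 highest in mean TPM of each list, those below 0.1 TPM, and the called gene with the largest ratio. That called gene had to be at a mean of 1 TPM or more. Others were named after their values were seen: Igf1r, Insig1 and the genes leading a family. So were some genes with an unadjusted p under 0.05 by edgeR's exact test at the common dispersion. Isoforms at 10% or more were named. Some listed genes are counted but not reported singly here. The test was checked on simulated counts that held counting error alone, so the check does not cover further variation between libraries. Intervals and limits hold counting error alone: without molecular identifiers, reads can be copies of 1 molecule. The genes and lists were chosen with earlier results of these data known.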

Additional observations from a re-analysis of the deposited data

How the results depend on the processing

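The number of the 10 genes that passed between libraries was 8 with TMM, 9 with DESeq2 size factors, 5 with total reads (3 higher in replicate 1, 2 in replicate 2), 6 with spike-ins (3 and 3) and 0 at the common dispersion, where 162 of all genes passed. Under total reads the log2 ratio turned to 0.0286 for Irs1, 0.0648 for Akt1, 0.0102 for Akt2, 0.0906 for Gcgr and 0.0045 for Creb3l3, and under spike-ins to 0.0577, 0.0939, 0.0393, 0.120 and 0.0336. The cause was not tested. In levels, protein-coding models alone gave 9.61 TPM for Insr, 45.1 for Akt1, 357 for Gcgr and 164 for Creb3l3, an alternative added after seeing the data, and TPM over annotated genes alone gave 7.18 for Irs1 and 15.1 for Foxo3. Ratios by reads averaged 2.93 for Irs1 to Irs2, 1.70 for Akt2 to Akt1 and 1.36 for Foxo3 to Foxo1, since length is then not divided out. Posterior means gave leading isoform shares of 47.9% for Foxo3 and 84.4% for Trib3. Of the pathway lists, 17 core genes passed under spike-ins, and 9 endoplasmic reticulum genes under total reads and under spike-ins. At the common dispersion 0 genes of any list passed edgeR's exact test, which was added for the lists after seeing the data. Its unadjusted p was under 0.05 for Adcy1, Igfbp1, Pck1, Pdk4, Pnpla3, Apcs, Apoc2, Lpl and Vldlr. Of all genes, 58.7% passed by total reads, 59.9% by spike-ins and 1.11% at the common dispersion. At 0.5 TPM, 2 receptors related to Gcgr were detected. Leaving out 1 library gives the other library's value, so levels ranged from 4.05 and 4.62 TPM for Trib3 to 454.13 and 482.68 TPM for Gcgr. Of 215 values recomputed, 161 kept direction and side of the threshold, stayed within a fixed fold for counts, or moved by less than the spread. Values without 1 library could not fail this rule, since leaving out 1 of 2 always moves the mean by less than their SD. With a prior count of 5 the p-values were those of the main test. The 161 thus include values whose outcome was fixed in advance. No paired analysis was possible because there is 1 group. Depth limits Trib3, with 343 and 391 reads, most.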

Other observations

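Within the list of genes downstream of Gcgr, gene families differed in how far 1 gene dominated. These families were singled out after their values were seen and are given as values only. Of 10 adenylyl cyclase genes, which make cyclic AMP, 4 were detected, and Adcy9 held 41.7% and 47.3% of their summed TPM of 20.12 and 27.25 in replicates 1 and 2. Of 8 phosphodiesterase genes, which degrade it, 7 were detected at a sum of 58.68 and 63.68 TPM, and Pde4c held 37.7% and 37.8%. Prkaca held 81.2% and 80.8% of the TPM of the 2 catalytic subunit genes of protein kinase A. Both were higher in replicate 1 under TMM (edgeR's exact binomial test), as were 29% of all genes tested. Prkar1a held 63.4% and 71.7% of the regulatory subunits, and Crtc2, a CREB coactivator dephosphorylated after glucagon, held 68.5% and 62.2% of the 3 coactivator genes.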
